A study of Mus musculus with 18 samples.

Results

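The DNA replication machinery was followed as a set of 47 genes, from origin licensing through the helicase, polymerases, clamp and clamp loader to the factors that rebuild chromatin on new DNA. The genes were taken by name, and each was read from the probe annotated to it with the highest mean intensity. Of the 47, 45 had a named probe on the Illumina MouseWG-6 V1 array and 41 were measured, against 11195 measured genes in all. No probe was named to *Mcm3* or *Gins1*, and the probes of *Orc1*, *Pola1*, *Pole2* and *Timeless* were detected on no array. RNA had been taken from factor dependent myeloid (FDM) cells, which the labels call myeloid progenitor cells and which were made by transforming mouse cells with HoxB8, so that they depend on IL-3 and all groups carry the same oncogene. The 6 groups were *p53-/-* cells and WT cells, each in IL-3 (0 h) and 6 h and 18 h after IL-3 was removed, with 3 arrays a group, 1 from each of 3 clones. Clones are numbered here by the replicate number in the labels, which paired arrays of a genotype across the 3 times, and each genotype rests on 3 clones. The genotype was taken from the labels, since no probe was named to *Trp53* here; *Cdkn1a* (p21), a p53 target, was lower in *p53-/-* cells at all 3 times (log2 difference -3.02 at 0 h, -2.05 at 6 h and -2.62 at 18 h, all called by limma).

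Replication starts at origins, where the origin recognition complex, Cdc6 and Cdt1 load the MCM helicase before S phase. The kinase Cdc7 with Dbf4, and Cdc45 with the GINS complex, then turn MCM into a moving helicase, primase and the polymerases copy both strands, and the clamp Pcna, its loader and the nuclease and ligase of the lagging strand complete the copy. Many of these genes are transcribed late in G1 under E2F factors, so their transcripts mark cycling cells, and in myeloid cells that need IL-3 the cytokine is what keeps the cycle going.

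Levels below are log2 values after background correction and quantile normalization, 1 probe for each gene, and are compared only within a gene. A gene was called where the limma adjusted p was 0.1 or lower and the B statistic, the log odds of a change, was positive, which are the thresholds stated for the study. In bulk RNA, fewer cells making a transcript and less of it in each cell cannot be told apart, and here that touches each difference between times and genotypes.

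One array stood apart. The *p53-/-* 18 h array of clone 3 had the lowest array weight (0.0905, against 0.467 to 4.34 on the other arrays), the lowest median intensity (102.9, against 122.1 to 175.2) and the smallest share of probes detected (27.01%, against 30.69% to 34%). On it the members scattered both ways: *Mcm10* was at 10.14, above the *p53-/-* arrays at 0 h, and *Mcm2* at 11.68, just below them, whereas *Rfc4* was at 5.5 and *Lig1* at 5.86, below each of the other 17 arrays. The interquartile range of the 41 members, each set against its own mean over all arrays, ran from -0.97 to 0.55 there, while it ran from -0.51 to 0.07 and from -0.66 to -0.33 in *p53-/-* clones 1 and 2 at 18 h. The array was kept, at its low weight, and the counts without it are given below.

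**Figure D1:**
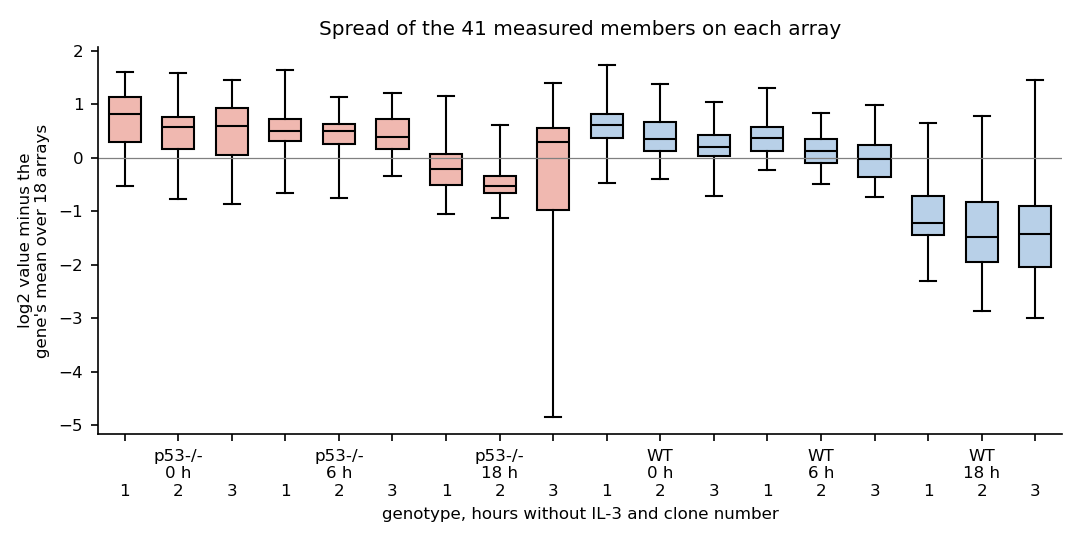
Box plots of the 41 measured members on each of the 18 arrays, as log2 value minus the gene's own mean over all arrays (line, median; box, interquartile range; whiskers, lowest and highest gene), with *p53-/-* arrays in red and WT arrays in blue. At 18 h medians lie between -0.52 and 0.29 on the *p53-/-* arrays and between -1.47 and -1.22 on the WT arrays, and *p53-/-* clone 3 at 18 h has the widest box.

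After 18 h without IL-3, 14 of the 41 members were called lower in *p53-/-* cells than at 0 h and none higher, with a median log2 change of -1.03; in all measured genes 2.55% were called lower. In WT cells 32 of 41 were called lower and none higher, with a median of -1.98, against 10.7% of all measured genes. The median over all measured genes was 0.02 in *p53-/-* cells and -0.01 in WT cells. The 3 arrays at 18 h all lay below the 3 at 0 h for 22 members in *p53-/-* cells, as for 9.17% of all genes, and for 38 members in WT cells, as for 21.8% of all genes. All 14 genes called in *p53-/-* cells were among the 32 called in WT cells, which is 100% of the first list and 43.8% of the second. By clone, the median member changed by -0.99, -0.97 and -0.67 in *p53-/-* clones 1, 2 and 3 and by -1.93, -1.97 and -1.74 in the WT clones. The count in *p53-/-* cells was 11 without the clone 3 array at 18 h, but 0 without that of clone 1 and 0 without that of clone 2, where only 2 and 1 of all 11195 genes were called. Without *p53-/-* clone 1 at 0 h it was 5 and without clone 3 at 0 h it was 8. In WT cells the count stayed between 28 and 33 whichever array was left out.

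**Figure D2:**
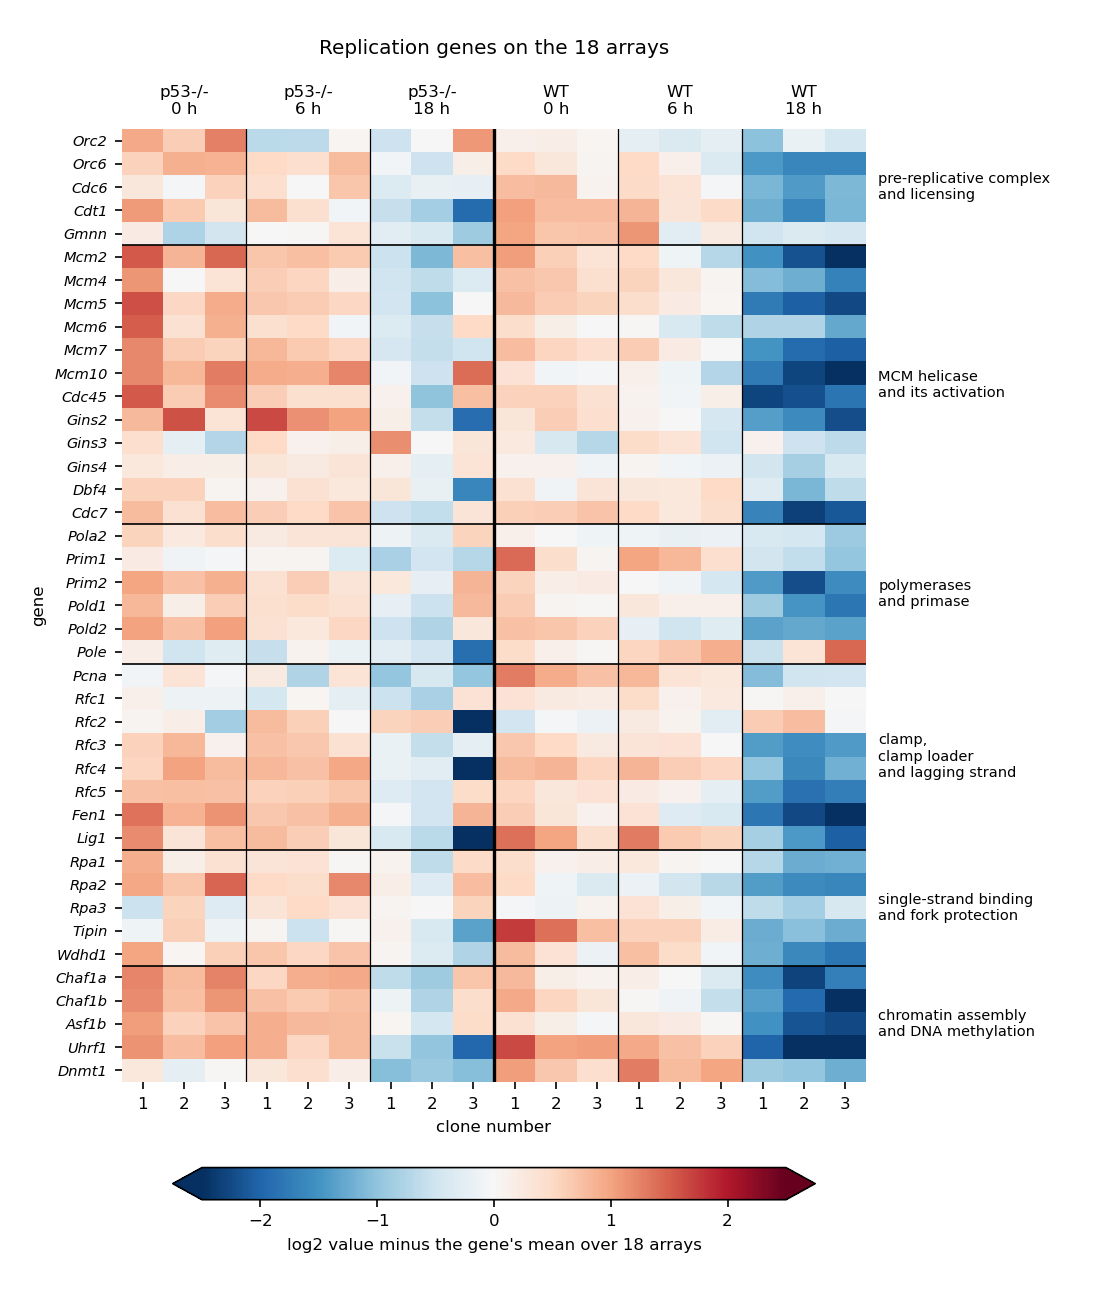
Heat map of the 41 measured members (rows, in 6 role groups) on the 18 arrays (columns, by genotype, time and clone number), coloured by log2 value minus the gene's mean over all arrays, with values beyond 2.5 in either direction at the end colours. At 18 h *p53-/-* clones 1 and 2 are pale, *p53-/-* clone 3 mixes red and blue rows, and the 3 WT columns are blue in nearly all rows.

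Most of the fall came after 6 h. In the first 6 h a single member passed the test in each genotype: *Orc2* in *p53-/-* cells, where 1.08% of all genes were called lower, and *Pold2* in WT cells, where 4.30% were. *Orc2*, a subunit of the origin recognition complex, was 7.08, 6.74 and 7.39 at 0 h and 5.47, 5.49 and 6.19 at 6 h in *p53-/-* clones 1 to 3, and it was detected on only 1 of the 3 arrays at 6 h (log2 change -1.51, SE 0.287, adjusted p = 0.0116). At 18 h it was 5.62, 6.14 and 7.22, with clone 3 near its 0 h level and clone 1 near its 6 h level. In WT cells *Orc2* was 6.25, 6.3 and 6.18 at 0 h and 5.91, 5.78 and 5.88 at 6 h, a smaller step (log2 change -0.44, not called). *Pold2*, the accessory subunit of polymerase delta, was 11.75, 11.72 and 11.6 at 0 h and 10.82, 10.53 and 10.71 at 6 h in WT cells, with no overlap (log2 change -1.05, SE 0.118, adjusted p = 3.48e-05). In *p53-/-* cells it was 12.02, 11.75 and 12.05 at 0 h and 11.4, 11.28 and 11.53 at 6 h (log2 change -0.58, adjusted p = 0.0855, not called). With the clone as a block 3 members passed in WT cells over these 6 h, *Pold2* with *Mcm2* and *Chaf1b* where the block was fixed; the *Orc2* call was lost without *p53-/-* clone 1 or 2 at 6 h or clone 3 at 0 h. Between 6 h and 18 h, 15 members were called lower in *p53-/-* cells (1.10% of all genes) and 32 in WT cells (5.64%). The *p53-/-* count was 15 without the clone 3 array at 18 h, 0 without clone 1 or clone 2 at 18 h, and 7 and 5 without clones 1 and 2 at 6 h.

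Promoter sequence is shown for the 6 genes that fell furthest in WT cells by 18 h among those called whose promoter window holds an E2F motif; this motif was more frequent among the members than among all promoters of the same length. The windows are RefSeq's, from 250 bases before to 50 after a transcript start on GRCm38.p6, and 38 of the 47 members had at least 1. The E2F motif was searched in 4 spellings (TTTCCCGC, TTTGGCGC, TTTCGCGC and TTTGCCGC) on both strands, and matches on opposite strands can overlap. They were present for 15 of the 38 members (39.5%) and for 704 of 27025 genes in the table (2.6%). Of the 27 genes called lower in WT cells that had a window, 10 held a match (37%), and of the 6 measured members not called there 1 did, *Gins3*. CCAAT was present for 63.2% of members and 41.1% of all genes, and the CHR letters TTTGAA for 23.7% and 20.2%. Capitals mark the E2F matches. The windows are *Uhrf1* at chr17:56304063-56304362 (plus strand), *Mcm5* at chr8:75109259-75109558 (plus), *Mcm7* at chr5:138171834-138172133 (minus), *Lig1* at chr7:13278576-13278875 (plus), *Cdt1* at chr8:122567765-122568064 (plus) and *Cdc6* at chr11:98907901-98908200 (plus), each written 5′ to 3′ on the gene's strand.
Uhrf1: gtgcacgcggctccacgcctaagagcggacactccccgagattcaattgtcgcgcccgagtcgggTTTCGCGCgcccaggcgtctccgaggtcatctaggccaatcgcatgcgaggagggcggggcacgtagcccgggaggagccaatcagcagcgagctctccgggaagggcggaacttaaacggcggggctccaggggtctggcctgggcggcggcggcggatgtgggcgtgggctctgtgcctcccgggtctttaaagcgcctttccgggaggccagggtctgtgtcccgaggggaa
Mcm5: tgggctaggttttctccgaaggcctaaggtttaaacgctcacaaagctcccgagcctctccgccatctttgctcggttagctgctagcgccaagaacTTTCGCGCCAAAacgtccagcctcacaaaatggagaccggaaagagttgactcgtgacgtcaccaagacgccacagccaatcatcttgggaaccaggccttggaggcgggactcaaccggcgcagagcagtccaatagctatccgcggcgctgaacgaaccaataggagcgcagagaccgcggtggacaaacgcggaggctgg
Mcm7: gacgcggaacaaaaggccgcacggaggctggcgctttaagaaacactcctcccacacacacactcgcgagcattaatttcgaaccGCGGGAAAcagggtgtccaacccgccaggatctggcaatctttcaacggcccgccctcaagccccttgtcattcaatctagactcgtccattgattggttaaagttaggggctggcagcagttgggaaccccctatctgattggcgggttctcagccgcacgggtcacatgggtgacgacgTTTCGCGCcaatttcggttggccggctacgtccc
Lig1: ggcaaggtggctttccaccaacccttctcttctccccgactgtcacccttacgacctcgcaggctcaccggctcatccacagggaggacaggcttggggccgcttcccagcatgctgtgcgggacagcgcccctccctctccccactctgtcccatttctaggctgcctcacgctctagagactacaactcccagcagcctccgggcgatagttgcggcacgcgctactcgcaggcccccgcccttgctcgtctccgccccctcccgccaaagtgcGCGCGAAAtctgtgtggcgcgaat
Cdt1: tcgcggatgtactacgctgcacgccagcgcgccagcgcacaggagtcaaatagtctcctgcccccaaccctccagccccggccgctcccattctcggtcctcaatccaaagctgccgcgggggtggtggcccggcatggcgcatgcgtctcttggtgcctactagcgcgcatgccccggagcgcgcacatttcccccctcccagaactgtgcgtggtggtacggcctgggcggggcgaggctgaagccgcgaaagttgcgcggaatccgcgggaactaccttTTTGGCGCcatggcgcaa
Cdc6: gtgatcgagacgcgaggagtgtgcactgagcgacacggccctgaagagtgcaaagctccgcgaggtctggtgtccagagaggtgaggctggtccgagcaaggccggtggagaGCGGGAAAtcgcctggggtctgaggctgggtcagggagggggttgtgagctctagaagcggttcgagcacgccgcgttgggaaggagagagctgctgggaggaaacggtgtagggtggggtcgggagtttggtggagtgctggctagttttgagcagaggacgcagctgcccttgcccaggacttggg

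In *Mcm5* the capitals are 2 matches on opposite strands that overlap, TTTCGCGC and TTTGGCGC. In *Mcm7* the first match starts at base 86 of the window and the last ends at base 274. *Cdc7*, *Mcm2* and *Cdc45*, which fell further in WT cells than *Mcm5*, had windows without any of the 4 spellings. A match is only a run of letters and not a measured binding site.

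Among the licensing genes, *Cdt1* alone was called lower in both genotypes by 18 h. *Cdt1*, which brings MCM to the origin, was 9.46, 9.2 and 8.12 at 18 h and 11.11, 10.69 and 10.35 at 0 h in *p53-/-* cells (log2 change -1.43, SE 0.295, adjusted p = 0.00793). In WT cells it was 8.82, 8.41 and 8.9 at 18 h and 11.06, 10.83 and 10.81 at 0 h (log2 change -2.28, SE 0.192, adjusted p = 4.75e-07). The groups did not overlap in either genotype. *Cdc6*, the other loader, was 8.04, 8.2 and 8.18 at 18 h and 8.67, 8.35 and 8.97 at 0 h in *p53-/-* cells, and 7.24, 6.98 and 7.25 at 18 h and 9.15, 9.19 and 8.47 at 0 h in WT cells. All *p53-/-* clones thus held more *Cdc6* RNA at 18 h than the WT clones (log2 difference 1.05, SE 0.228, adjusted p = 0.00449), and the WT fall was called (-2) while the *p53-/-* change was not (-0.53). *Orc6*, another origin recognition subunit, was 10.85, 10.41 and 11.07 in *p53-/-* cells and 9.49, 9.31 and 9.31 in WT cells at 18 h, again apart (log2 difference 1.28, adjusted p = 0.000672). *Gmnn*, which encodes the Cdt1 inhibitor geminin, was near the detection limit, with 1 of 9 *p53-/-* arrays and 4 of 9 WT arrays detected. It was detected on all 3 WT arrays at 0 h and none at 18 h, which bounds its fall at 1.4-fold or more, and its WT change was not called (log2 -1.13, adjusted p = 0.00186).

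Of the helicase group, 6 of 12 genes were called lower by 18 h in *p53-/-* cells (2.55% of all genes) and 10 of 12 in WT cells (10.7%). In *p53-/-* cells all 12 had a positive difference from WT at 18 h, as had 6087 of all 11195 genes. Of the 12, 6 were called, against 4.35% of all genes called higher. *Mcm2*, an MCM subunit, was 10.4, 9.81 and 11.68 at 18 h and 12.46, 11.79 and 12.37 at 0 h in *p53-/-* cells (log2 change -2.06, SE 0.419, adjusted p = 0.00717), the largest fall of a member in that genotype. In WT cells it was 9.43, 8.76 and 7.93 at 18 h and 11.98, 11.53 and 11.27 at 0 h (log2 change -2.73, SE 0.273, adjusted p = 1.88e-06). At 18 h the *p53-/-* clones all lay above the WT clones, but the difference was not called (log2 1.33, adjusted p = 0.0113). *Mcm5* was 11.97, 11.42 and 12.45 at 18 h and 14.06, 12.96 and 13.38 at 0 h in *p53-/-* cells, and 10.68, 10.4 and 10.19 at 18 h and 13.27, 13.08 and 13.01 at 0 h in WT cells. Its 18 h groups did not overlap between genotypes (log2 difference 1.26, SE 0.212, adjusted p = 0.00087), and it fell in both (log2 change -1.75, adjusted p = 0.00123, in *p53-/-* cells and -2.66, adjusted p = 4.97e-08, in WT cells). *Mcm7* gave the same picture, with 10.65, 10.48 and 10.57 in *p53-/-* cells and 9.58, 9.15 and 9.03 in WT cells at 18 h (log2 difference 1.32, adjusted p = 0.00045). *Mcm4* and *Mcm6* were not called between genotypes at 18 h on their brightest probes (0.68 and 0.4), and their other probes read differently: the second *Mcm4* probe was called higher in *p53-/-* cells (1.74) and another *Mcm6* probe, detected on all 18 arrays, was called for a genotype difference in the 18 h change (1.71) where the brightest gave -0.35. That *Mcm6* probe also had the opposite sign in IL-3, -1.02 where the brightest gave 0.74, so the probes of *Mcm6* disagree.

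*Mcm10*, which binds MCM at firing origins, was called higher in *p53-/-* cells at 6 h and 18 h. It was 9.92, 9.56 and 10.02 in *p53-/-* cells and 9.09, 8.67 and 8.71 in WT cells at 0 h, without overlap but not called (log2 difference 1.1, adjusted p = 0.0215). At 6 h it was 9.66, 9.64 and 9.95 in *p53-/-* cells and 8.85, 8.62 and 8.0 in WT cells (log2 difference 1.14, SE 0.231, adjusted p = 0.00277). At 18 h it was 8.67, 8.21 and 10.14 in *p53-/-* cells and 6.97, 6.44 and 6.06 in WT cells, the highest *p53-/-* value being that of clone 3 (log2 difference 1.96, SE 0.263, adjusted p = 0.000185). *Cdc45*, a subunit of the active helicase, was 9.65, 8.54 and 10.29 in *p53-/-* cells and 7.24, 7.35 and 7.72 in WT cells at 18 h, with the lowest *p53-/-* clone above the highest WT clone (log2 difference 1.72, SE 0.256, adjusted p = 0.000382). *Cdc7*, the kinase that fires origins, was nearly level between genotypes at 0 h, 10.17, 9.75 and 10.15 in *p53-/-* cells and 9.97 to 10.08 in WT cells. At 18 h it was 8.85, 8.76 and 9.7 in *p53-/-* cells and 7.71, 7.03 and 7.26 in WT cells, a gap of more than 1 log2 unit between the nearest clones (log2 difference 1.6, SE 0.185, adjusted p = 6.45e-05). Its partner *Dbf4* did not follow: it was 10.64, 10.14 and 8.7 in *p53-/-* cells and 10.02, 9.2 and 9.69 in WT cells at 18 h, overlapping and not called. Of the GINS genes, *Gins2* and *Gins4* were called lower in WT cells by 18 h (-2.17 and -0.75). *Gins2* was 10.72, 10.21 and 10.09 in *p53-/-* cells and 9.18, 9.06 and 8.66 in WT cells at 6 h, the largest called difference at that time (log2 1.41, SE 0.256, adjusted p = 0.00133), though its 2 other probes gave 1.1 and 0.97 and were not called. *Gins3* was 9.81, 8.66 and 8.96 at 18 h and 9.07, 8.41 and 7.91 at 0 h in *p53-/-* cells and 8.75, 8.14 and 8.0 at 18 h and 8.9, 8.26 and 7.93 at 0 h in WT cells, with changes of 0.74 and -0.02 that did not pass the test.

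Primase and polymerase genes split. *Prim2*, the large primase subunit, had the largest called difference between genotypes at 18 h: it was 9.15, 8.67 and 9.73 in *p53-/-* cells and 7.47, 6.68 and 7.3 in WT cells (log2 1.97, 3.91-fold, SE 0.232, adjusted p = 7.75e-05). At 0 h the values were 9.86, 9.61 and 9.77 in *p53-/-* cells and 9.44, 9.06 and 9.08 in WT cells, apart by less and not called. *Prim2* was thus called lower at 18 h in WT cells (-2.15, adjusted p = 6.19e-07) and not in *p53-/-* cells (-0.82, adjusted p = 0.0915). *Prim1*, the catalytic primase subunit, was dim: it was detected on no array at 18 h in either genotype and on all 3 WT arrays at 0 h, so that its WT fall was at least 1.76-fold (adjusted p = 0.000363). At 6 h it was 5.86, 5.86 and 5.46 in *p53-/-* cells and 6.77, 6.63 and 6.21 in WT cells, lower in *p53-/-* cells without overlap or a call (log2 difference -0.76, adjusted p = 0.022). *Pola2*, the accessory subunit of polymerase alpha, changed by -0.63 in *p53-/-* cells and -0.49 in WT cells by 18 h and was called in neither. *Pold2* was 10.49, 10.27 and 11.31 in *p53-/-* cells and 9.69, 9.75 and 9.68 in WT cells at 18 h, without overlap (log2 difference 0.68, SE 0.151, adjusted p = 0.00495). *Pold1*, the catalytic subunit of polymerase delta, was 11.1, 10.77 and 12.11 in *p53-/-* cells and 10.41, 9.83 and 9.49 in WT cells (log2 difference 1.03, adjusted p = 0.00439). *Pole*, the catalytic subunit of polymerase epsilon, went its own way. In WT cells it was 7.29, 8.19 and 9.29 at 18 h and 8.3, 7.98 and 7.87 at 0 h, spread over 2 log2 units at 18 h, and it was lower in *p53-/-* cells at 6 h, 7.27, 7.94 and 7.68 against 8.39, 8.53 and 8.75 in WT cells (log2 difference -0.92, adjusted p = 0.0322, not called).

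Of the clamp loader, the large subunit and 1 small subunit stood outside the general fall. *Rfc2* had higher values at 18 h than at 0 h in 5 of 6 clones: in *p53-/-* cells it was 13.21, 13.26 and 9.95 at 18 h and 12.73, 12.81 and 11.78 at 0 h, with clone 3 alone low at 18 h, and in WT cells it was 13.3, 13.43 and 12.62 at 18 h and 12.17, 12.61 and 12.51 at 0 h. The WT arrays at 18 h all lay above those at 0 h, yet the change was not called (log2 0.75, SE 0.252, adjusted p = 0.0265), and its 2 other probes gave 0.54 and 0.61. *Rfc1*, the large subunit, was 10.11, 10.2 and 10.08 at 18 h and 10.44, 10.31 and 10.27 at 0 h in WT cells (log2 change -0.16). At 18 h it was 9.54, 9.28 and 10.45 in *p53-/-* cells, where clone 3 alone lay above the WT clones, and the difference was not called (log2 -0.73, adjusted p = 0.00926). *Rfc3*, *Rfc4* and *Rfc5* were called lower in WT cells by 18 h (-1.99, -2.19 and -2.06), and *Rfc5* in *p53-/-* cells too (-1.11). *Rfc5* was 9.45, 9.3 and 10.24 in *p53-/-* cells and 8.38, 7.92 and 8.04 in WT cells at 18 h (log2 difference 1.35, SE 0.169, adjusted p = 0.000118). A second *Rfc5* probe gave a difference of 2.06 and was called, and another, detected on 1 array, was not. The 2 *Rfc3* probes, both detected on all arrays, differed in when they were called: the brightest at 18 h (1.11 on the log2 scale, against 0.66 for the other) and the other at 6 h (0.98, against 0.4 for the brightest). *Rfc4* was high in *p53-/-* clones 1 and 2 at 18 h (10.17 and 10.06) and 5.5 in clone 3, while the WT clones were 9.37, 8.72 and 9.13.

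*Fen1*, the flap nuclease of the lagging strand, was 11.6, 11.16 and 12.48 in *p53-/-* cells and 9.83, 9.38 and 9.0 in WT cells at 18 h, with more than 1 log2 unit between the nearest clones (log2 difference 1.96, 3.89-fold, SE 0.244, adjusted p = 0.000117). It was called lower by 18 h in both genotypes, with log2 changes of -1.34 in *p53-/-* cells and -2.52 in WT cells. *Lig1*, the ligase that joins Okazaki fragments, fell in WT cells (-2.32, adjusted p = 1.03e-05) and was not called between genotypes on its brightest probe, where clone 3 of the *p53-/-* cells was at 5.86. Another *Lig1* probe was called both for the difference at 18 h (1.43) and for the fall in *p53-/-* cells (-1.86). The remaining *Lig1* probe, detected on 16 arrays, gave 0.11 and -1.31 and was called for neither. The *Pcna* probe was dim, detected on 14 of 18 arrays: it was 5.25, 5.82 and 5.24 at 18 h and 6.15, 6.55 and 6.17 at 0 h in *p53-/-* cells, against 5.13, 5.71 and 5.74 at 18 h and 7.5, 7.14 and 6.95 at 0 h in WT cells. The WT fall was called (log2 -1.59, adjusted p = 7.1e-05), and in IL-3 *Pcna* was lower in *p53-/-* cells without overlap but without a call (log2 -0.87, adjusted p = 0.0897).

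The 3 subunits of RPA, which coats single-stranded DNA, were all called lower in WT cells between 6 h and 18 h (5.64% of all genes). None was called in the comparisons within *p53-/-* cells, where 1.08% to 2.55% of all genes were called lower. *Rpa2* was 10.74, 10.24 and 11.35 in *p53-/-* cells and 9.17, 8.99 and 8.94 in WT cells at 18 h (log2 difference 1.48, SE 0.241, adjusted p = 0.00071). At 6 h it was 11.08, 11.02 and 11.78 in *p53-/-* cells and 10.42, 10.11 and 9.89 in WT cells, again apart (log2 difference 0.98, adjusted p = 0.00383). A second *Rpa2* probe, detected on 16 arrays, gave -0.51 at 6 h and 0.86 at 18 h and was called at neither, and the remaining one, detected on 2 arrays, was not called either. *Rpa1* and *Rpa3* differed by 0.83 and 0.78 at 18 h and were not called. *Wdhd1* (And-1), which links polymerase alpha to the helicase, was 8.19, 7.79 and 7.36 in *p53-/-* cells and 6.89, 6.52 and 6.31 in WT cells at 18 h (log2 difference 1.37, SE 0.257, adjusted p = 0.00178). *Tipin*, a fork protection factor that works with Timeless, ran against most of its group in IL-3: it was 5.84, 6.53 and 5.82 in *p53-/-* cells and 7.68, 7.31 and 6.7 in WT cells at 0 h, all *p53-/-* clones below the WT clones, with no call (log2 difference -1.2, adjusted p = 0.0127). At 18 h it was 6.04, 5.55 and 4.6 in *p53-/-* cells, where 1 of 3 arrays detected it, and 4.7, 4.89 and 4.71 in WT cells, where none did. At 6 h *Tipin* was also lower in *p53-/-* cells, 6.01, 5.41 and 5.96 against 6.52, 6.51 and 6.12 in WT cells, with no call (log2 difference -0.69, adjusted p = 0.0383). The WT fall over 18 h was at least 3.04-fold (adjusted p = 5.12e-07), and the *p53-/-* change was -0.33 (adjusted p = 0.63).

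The chromatin group fell as a whole in WT cells, with all 5 genes called lower by 18 h (10.7% of all genes). In *p53-/-* cells 4 of the 5 were called lower (2.55% of all genes). *Uhrf1*, which reads hemimethylated DNA behind the fork and brings in Dnmt1, had the largest fall of any member: it was 8.45, 7.59 and 7.69 at 18 h and 12.09, 11.44 and 11.48 at 0 h in WT cells (log2 change -3.72, 13.2-fold, SE 0.206, adjusted p = 1.29e-08). In *p53-/-* cells it was 9.88, 9.45 and 8.49 at 18 h and 11.57, 11.22 and 11.48 at 0 h (log2 change -1.81, SE 0.316, adjusted p = 0.00281). The genotypes overlapped in IL-3 and had parted by 18 h, where each *p53-/-* clone lay above each WT clone, clone 3 by the least. *Dnmt1*, the maintenance DNA methyltransferase, reached a like level in both: it was 8.6, 8.74 and 8.6 in *p53-/-* cells and 8.77, 8.68 and 8.45 in WT cells at 18 h (log2 difference 0). In IL-3 it was lower in *p53-/-* cells, 9.92, 9.42 and 9.69 against 10.71, 10.33 and 10.08 in WT cells, without overlap and without a call (log2 difference -0.67, adjusted p = 0.0381), and likewise at 6 h, 9.95, 10.07 and 9.83 against 10.94, 10.44 and 10.64 (log2 difference -0.65, adjusted p = 0.00867). *Chaf1a*, a subunit of the chromatin assembly factor CAF-1, was 8.6, 8.35 and 9.93 at 18 h and 10.46, 10.03 and 10.47 at 0 h in *p53-/-* cells (log2 change -1.8, SE 0.325, adjusted p = 0.00352), against 7.68, 6.92 and 7.52 at 18 h and 10.04, 9.39 and 9.32 at 0 h in WT cells (log2 change -2.28). *Asf1b*, a histone chaperone, was 11.03, 10.54 and 11.44 in *p53-/-* cells and 9.47, 8.82 and 8.72 in WT cells at 18 h, with the lowest *p53-/-* clone more than 1 log2 unit above the highest WT clone (log2 difference 1.83, SE 0.203, adjusted p = 5.03e-05). *Chaf1b*, another CAF-1 subunit, differed by 1.45 at 18 h (adjusted p = 0.00114).

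**Figure D3:**
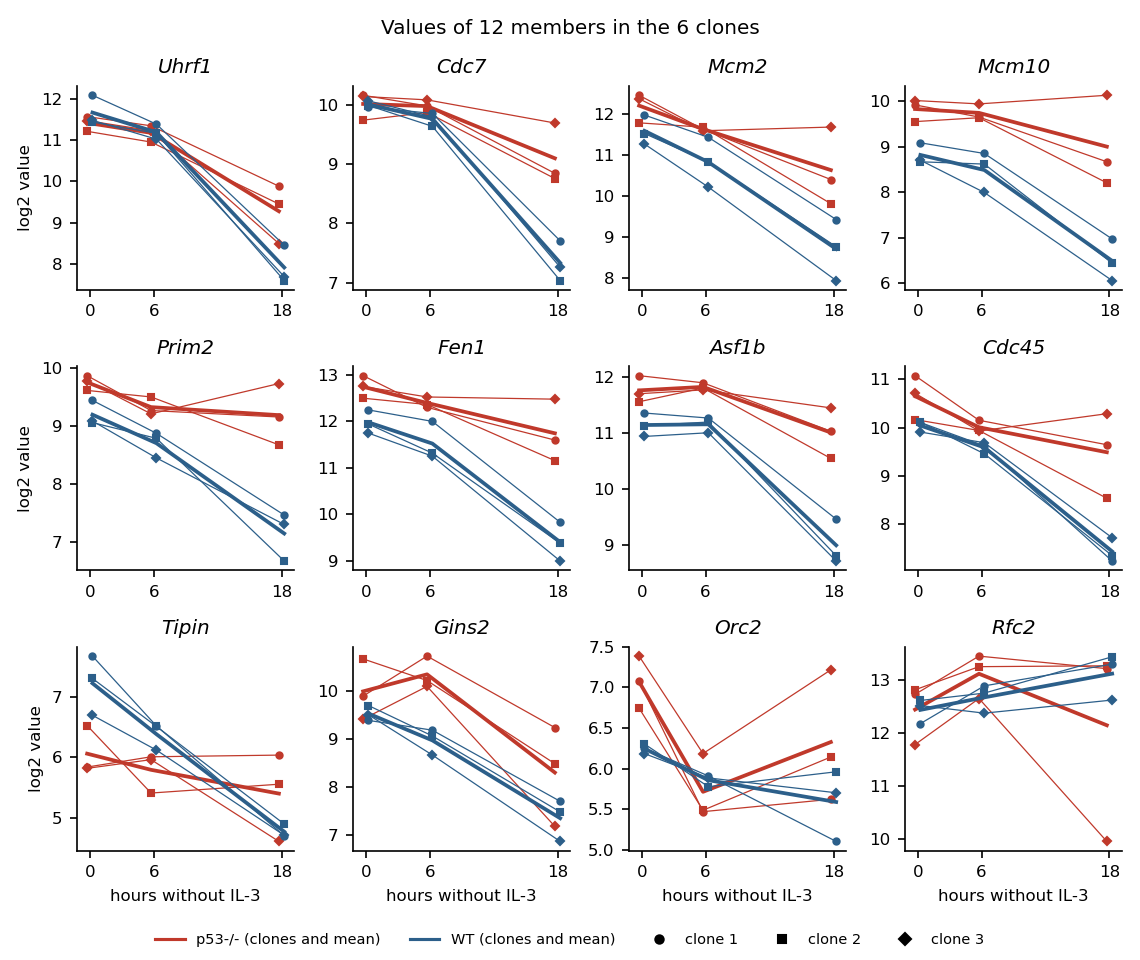
Log2 values of 12 members at 0, 6 and 18 h without IL-3 in 3 *p53-/-* clones (red) and 3 WT clones (blue), with a marker shape for each clone and a thick line for the group mean; each panel has its own vertical scale. *Uhrf1* and *Cdc7* start together and end apart, *Mcm10* and *Fen1* are apart at each time, *Orc2* dips at 6 h in the *p53-/-* clones and *Rfc2* does not fall in WT cells.

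The genotypes were set against each other at each time to see what differed between them. In IL-3, no member was called in either direction by limma, although 15 of 41 (36.6%) had an unadjusted p under 0.05, as did 28.8% of all genes, and 4.81% of all genes were called; the median difference was 0.23, and -0.01 where arrays were scaled by their medians. Other settings called up to 5 members there. At 6 h, *Gins2*, *Mcm10*, *Rpa2* and *Pold2* were called higher in *p53-/-* cells and none lower (4.10% of all genes were called higher), with a median of 0.25. That count rests on single arrays: it was 0 without *p53-/-* clone 1 or clone 2 at 6 h, 2 without clone 3, 2 without WT clone 2 or 3 at 6 h, and 0 with equal array weights. At 18 h, 20 members were called higher in *p53-/-* cells and none lower, against 4.35% of all genes, with a median of 1.02. The *p53-/-* clones all lay above the WT clones for 26 members, as for 18.3% of all genes. The 20 were spread over all 6 groups, with 2 licensing, 6 helicase, 3 polymerase and primase, 3 clamp and lagging strand, 2 single-strand binding and 4 chromatin genes. Without *p53-/-* clone 3 at 18 h the count was 19, of which 18 were among the 20. It was 0 without clone 1, where 9 genes of all those measured were called, 7 without clone 2, where 79 were, and 11 without WT clone 2, where 234 were, while the median member difference ran from 0.89 to 1.11 over all 18 arrays left out.

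**Figure D4:**
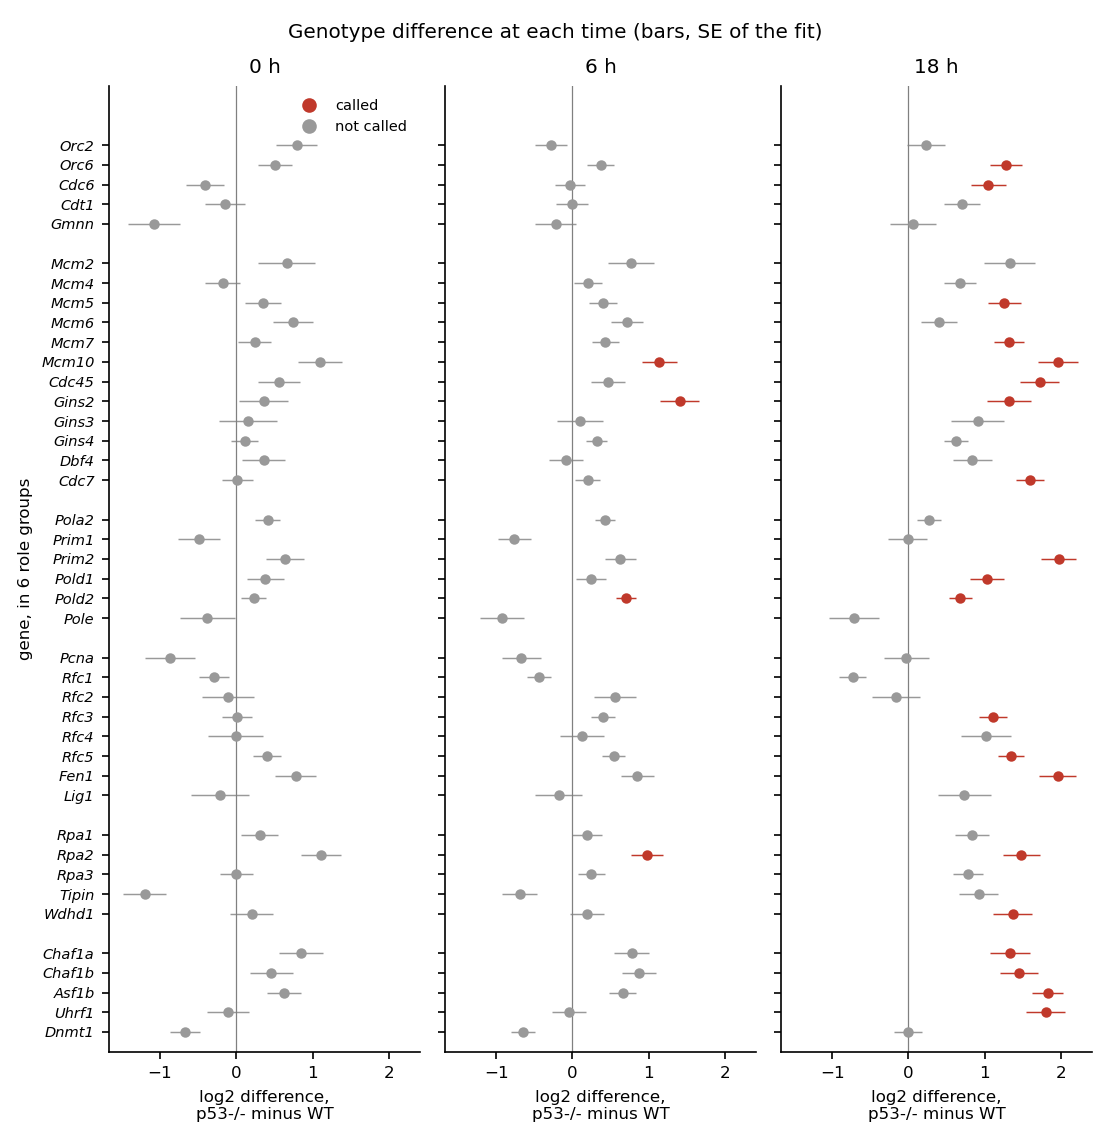
Log2 difference, *p53-/-* minus WT, of the 41 measured members in 6 role groups (top to bottom: licensing, helicase, polymerases and primase, clamp and lagging strand, single-strand binding, chromatin) at 0, 6 and 18 h; bars are the SE of the limma fit, and red points were called. No point is red at 0 h, 4 are at 6 h and 20 are at 18 h, all of them to the right of 0.

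The summed values of some cell type marker lists differed between the genotypes at 18 h, and their part in the differences above was not tested. The summed values of the erythroid list (5 of 6 genes measured) were 34100 to 47200 on the *p53-/-* arrays at 18 h and 278 to 8940 on the WT arrays, where *Slc4a1* was detected on none. All 5 erythroid genes had a positive difference, and 1 was called higher in *p53-/-* cells, where 4.35% of all genes were. The mast cell and basophil list (5 of 5 measured) summed to 4340 to 21500 in *p53-/-* cells and 25800 to 32700 in WT cells, and the monocyte and macrophage list (2 of 5 measured) to 22.3 to 4620 in *p53-/-* cells and 17300 to 38700 in WT cells. No gene of either list was called between genotypes at 18 h. At 0 h and again at 6 h, 2 mast cell and basophil genes and 1 monocyte and macrophage gene were called lower in *p53-/-* cells. Of all 11195 genes, 300 were called lower at 0 h and 563 at 6 h. The neutrophil list (6 of 6 measured) summed to 157 to 359 in *p53-/-* cells, with *Ltf* and *S100a8* detected on none, and to 93.4 to 46100 in WT cells, where the high value came from clone 3 (*S100a8* 4.76, 6.32 and 14.35); the groups overlapped and none of the 6 genes was called. The megakaryocyte list (4 of 4 measured, 2 called higher in *p53-/-* cells) summed to 9230 to 11600 in *p53-/-* cells and 10500 to 14100 in WT cells, which also overlapped. The myeloid progenitor list (10 of 10 measured) summed to 17900 to 23100 in *p53-/-* cells and 31000 to 43200 in WT cells. Of these 10 genes 1 was called lower in *p53-/-* cells. A positive difference, not called, was found for 4, among them *Mpo* (mean 9.05 in *p53-/-* cells and 6.37 in WT cells). At 18 h 7 of the 10 were detected on all 3 *p53-/-* arrays and 6 on all 3 WT arrays. *Kit*, a defining progenitor marker, was detected on no array of 5 of the 6 groups. Of the B and T cell list 1 of 4 genes was measured, *Cd3g*. It was called higher in *p53-/-* cells at 18 h (log2 difference 3.23), where 2 of 3 arrays detected it and no WT array did.

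Whether the 18 h response itself differed between genotypes was tested as an interaction, the *p53-/-* change minus the WT change. These tests share arrays with the comparisons within each genotype. Of the 41 members, 35 had the lower change in WT cells, with a median difference of 0.85 (0.03 over all genes), and 3 were called, all with the smaller fall in *p53-/-* cells, against 1.00% of all genes. *Tipin* had the largest difference (log2 2.12, SE 0.381, adjusted p = 0.0169), which rests on WT values at 18 h below detection. At 0 h it was already lower in *p53-/-* cells, 5.84, 6.53 and 5.82 against 7.68, 7.31 and 6.7 in WT cells. A fall in *p53-/-* cells could thus be read over a smaller range above the detection limit. The other *Tipin* probe gave 0.66 and was not called. *Uhrf1* followed (log2 1.91, SE 0.378, adjusted p = 0.0219), with changes of -1.69, -1.77 and -2.99 in *p53-/-* clones 1 to 3 and -3.64, -3.85 and -3.8 in WT clones. *Cdc7* had the smallest error of the 3 (log2 1.59, SE 0.275, adjusted p = 0.0169), with changes of -1.32, -0.99 and -0.45 in *p53-/-* clones and -2.26, -2.96 and -2.82 in WT clones. *Cdc6* was next and was not called (log2 1.47, adjusted p = 0.0397). With clones as a block the count rose to 9 (random) and 13 (fixed), and the fixed block added *Cdc6*, *Mcm7*, *Cdc45*, *Prim2*, *Rfc3*, *Rfc5*, *Fen1*, *Wdhd1*, *Chaf1b* and *Asf1b* to the 3. The count was 3 without *p53-/-* clone 3 at 18 h and 0 without clone 1, clone 2 or WT clone 2 at 18 h, where 0, 0 and 7 of all genes were called, and 0 with equal array weights. For the change over the first 6 h no member was called, nor was any other gene (0%); 3 members (7.32%) had an unadjusted p under 0.05, as did 9.3% of all genes, and none was called under the alternatives. These were *Orc2* (log2 -1.07, adjusted p = 0.447), *Gins2* (1.05, adjusted p = 0.491) and *Pold2* (0.47, adjusted p = 0.549), and the next smallest p was that of *Gmnn* (0.87, adjusted p = 0.583).

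**Figure D5:**
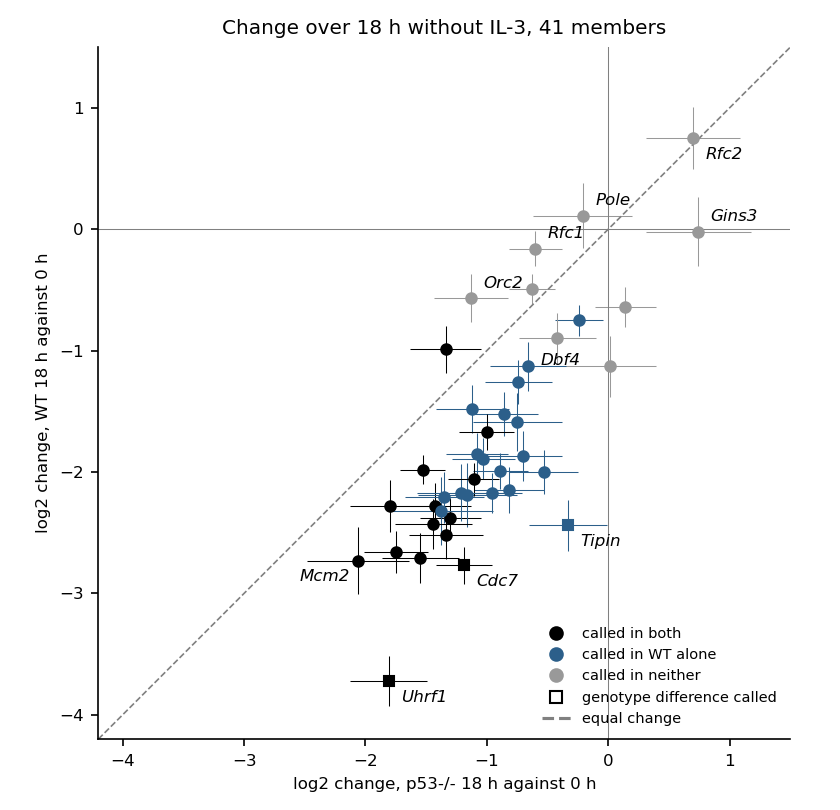
Log2 change over 18 h without IL-3 of the 41 measured members in *p53-/-* cells (horizontal) and WT cells (vertical), with SE of the limma fit as bars, colour for where the gene was called and squares for the 3 genes with a called genotype difference; the dashed line marks equal change. Of the points, 35 lie below the line, and *Gins3*, *Rfc2*, *Pole* and *Rfc1* sit near 0 on the vertical axis or above it.

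Over the 41 genes the changes in both genotypes were correlated (Pearson r = 0.784, Spearman rho = 0.756), as a description across genes read on the same arrays. Replication genes outside the 47 were mixed. Over the same 18 h, 2.55% of all genes were called lower in *p53-/-* cells and 10.7% in WT cells. Of all 11195 genes, 159 were called higher in *p53-/-* cells and 850 in WT cells. Of 10 other origin and helicase genes, 1 was called lower by 18 h in *p53-/-* cells and 2 in WT cells. Of 18 other fork genes, 1 was called lower and 1 higher in *p53-/-* cells, and 9 lower and 1 higher in WT cells. The higher one was *Pold4*, the small subunit of polymerase delta, in both (log2 change 1.73 in *p53-/-* cells and 1.55 in WT cells), while *Clspn*, which relays checkpoint signals at the fork (-2.66), *Chtf18*, the large subunit of an alternative clamp loader (-2.11), and *Ticrr*, needed for Cdc45 loading (-1.94), fell in WT cells. At 18 h 7 of these 28 genes were called higher in *p53-/-* cells and none lower, where 4.35% of all genes were called higher. Among 17 regulators of the G1/S step, 2 were called lower by 18 h in *p53-/-* cells, *Myc* and *E2f7* (the second detected on no array at 18 h, at least 1.42-fold lower), and 8 were called lower and 1, the inhibitor gene *Cdkn1b*, higher in WT cells. The counts over all genes to set beside these are those given above for the same 18 h. *E2f1*, an activator of replication genes, changed by -1.41 in WT cells (adjusted p = 6.86e-06) and *Ccne2*, a cyclin E gene that no WT array detected at 18 h, fell at least 7.07-fold there (adjusted p = 7e-07). At 18 h *Ccne2* was 7.68, 6.05 and 8.2 in *p53-/-* cells and 5.31, 5.28 and 4.63 in WT cells, a difference of at least 3.23-fold (adjusted p = 0.00422). *Myc* fell in both, with log2 changes of -3.9 in *p53-/-* cells and -3.95 in WT cells, and its genotype difference was not called (0.05, adjusted p = 0.978). In *p53-/-* clones 1 to 3 it was 11.24, 10.58 and 10.89 at 0 h and 6.7, 7.06 and 9.69 at 18 h. Clone 3, whose 18 h array had the lowest weight in the fit, thus fell the least. In WT cells *Myc* was 9.82, 10.48 and 9.82 at 0 h and 6.8, 6.18 and 6.31 at 18 h.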

How the data were processed

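RNA of 18 cultures was hybridised to Illumina MouseWG-6 V1 BeadChips. The authors deposited a non-normalized table with the bead-averaged intensity of each probe, and beside it a fraction headed as a detection p-value that rises with intensity and was therefore read as 1 minus that p. They also deposited log2 values made with lumi (version not stated), which served as an alternative. One array was left out of the published analysis without being named in the sources used here, so all 18 were kept.

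Intensities were background corrected (normexp from detection p, offset of 16), quantile normalized and taken to log2. Of 46632 probes, 29976 had 1 gene symbol, 10 several and 16646 none; genes were named only from probes with 1. A probe was kept if 1 array or more gave it a detection p below 0.01, and the 21413 kept were fitted in limma 3.58.1 (R 4.3.3) with array weights, 6 groups and empirical Bayes moderation, and p-values were adjusted over all of them (Benjamini-Hochberg, two-sided). Figures were drawn with matplotlib 3.10.9 in Python 3.11.15. The 11 comparisons were tested as contrasts of this 1 fit. The number of arrays, 3 a group, limits the precision. SE are those of the fit. The study describes the 3 arrays of a group as independent clones, and whether these came from separate animals is not given in the sources used here, so p-values measure the spread between clones. The fit reported had no term for the clone. Arrays of a clone at different times thus entered it as independent, and its tests between times did not use the pairing.

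Where a gene's probe was not detected on any array of a group, its fold between groups is given as a lower bound against the lowest detected signal; fitted differences in change that rest on such a group are marked. Other probes of a gene are given where call or sign differed. Genes with per-sample values were the 4 largest called changes in each main comparison, the 3 smallest p in each role group, the 4 smallest p for each genotype difference, and members that moved against their role group at an adjusted p of 0.1 or lower, plus a few named beside them. The members, role groups and other lists were chosen with earlier results of these data known. Replicate numbers paired the arrays within a genotype: deviations from the group means of arrays with the same number correlated between times in all 18 pairs (r = 0.276 to 0.756), and not between genotypes (9 pairs, r = -0.0417 to 0.0336). Alternatives were another background correction, scaling, weighting, filter, threshold, set of arrays, choice of probe and clone block, the authors' processed values, and each array left out.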

Additional observations from a re-analysis of the deposited data

Results flagged for a closer look

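For 3 genes the limma test of the difference itself, the *p53-/-* change over 18 h minus the WT change, passed the threshold: *Cdc7* (1.59), *Tipin* (2.12) and *Uhrf1* (1.91), each on the log2 scale with the smaller fall in *p53-/-* cells. For each of these genes, the change in every one of the 3 *p53-/-* clones lay above that in every WT clone. The genes were picked by the test on these same arrays, so this separation adds no support to it. *Tipin* was detected at 18 h on 1 of 3 *p53-/-* arrays and on none of the 3 WT arrays, so its value rests on signals below detection. It was also lower in *p53-/-* cells at 0 h, which left a smaller range over which a fall could be read. Its other probe gave 0.66 and was not called. With the authors' processed values the *Uhrf1* difference was 1.07 and was not called.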

How the results depend on the processing

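Among the genes called, none changed sign under any of the 10 other settings or with any of the 18 arrays left out. The counts of members called between 6 h and 18 h and between 0 h and 18 h in WT cells (32 each) stayed within 1.5 times under all of them. Other counts moved more. In *p53-/-* against WT at 0 h (0 called) they were 2 without background correction, 1 with the authors' processed values, 1 with median scaling, 5 at an adjusted p of 0.05 with no condition on B and 1 with the replicate block as a random effect. At 6 h (4) they were 7 without background correction, 9 with the authors' values, 0 with equal array weights, 16 at an adjusted p of 0.05 and 1 where only the arrays compared were fitted. At 18 h (20) the count was 13 where only those arrays were fitted. Over the first 6 h in *p53-/-* cells (1) it was 2 with the authors' values and 0 with equal weights, and in WT cells (1) it was 2 without background correction and 3 with the authors' values, at an adjusted p of 0.05 and with either replicate block. In *p53-/-* cells between 6 h and 18 h (15) it was 30 with median scaling, 5 with equal weights and 8 where only the arrays compared were fitted, and between 0 h and 18 h (14) it was 26, 6 and 5 under those settings and 23 at an adjusted p of 0.05. The genotype difference in the 18 h change (3) was called for 0 members with equal weights, 6 at an adjusted p of 0.05, 9 with the replicate block as a random effect and 13 with it fixed. The fixed block could not be fitted between genotypes at a single time, and neither block changed another count by over 1.5 times. The cause of these changes was not tested. Median scaling moved the median of all genes to -0.05 at 18 h between genotypes (0.06 in the fit reported), to -0.1 between 6 h and 18 h in *p53-/-* cells (0.03) and to 0.1 for the genotype difference at 6 h (-0.04), and the members' medians there were 0.7, -1.22 and 0.34.

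With each array left out, the counts ran from 0 to 1 (0 h), 0 to 5 (6 h) and 0 to 21 (18 h) between genotypes, from 0 to 1 (0 h to 6 h), 0 to 16 (6 h to 18 h) and 0 to 15 (0 h to 18 h) in *p53-/-* cells, from 1 to 2, 27 to 32 and 28 to 33 over the same spans in WT cells, and from 0 to 0 (6 h) and 0 to 4 (18 h) for the genotype difference in the change. The counts of 0 at 18 h came without *p53-/-* clone 1 or 2 at 18 h or WT clone 2 at 18 h. The *p53-/-* array of clone 3 then stays in the fit, with array weights estimated again from the arrays left. Probes near the detection limit, such as those of *Gmnn*, *Prim1*, *Tipin*, *Orc2* and *Pcna*, give bounds or noisy changes.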

Other observations

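Of 9 measured genes that supply DNA precursors, 6 were called lower by 18 h in *p53-/-* cells, where 2.55% of all genes were, and 9 in WT cells, where 10.7% of all genes were, with median log2 changes of -1.6 and -2.45. *Tk1*, thymidine kinase, changed by -1.42 in *p53-/-* cells (SE 0.265, adjusted p = 0.00419) and -3.29 in WT cells (SE 0.173, adjusted p = 1.06e-08), and the difference between these changes was called by limma (log2 1.87, adjusted p = 0.015). *Tk1* was the only 1 of the 9 with a called difference between the changes. *Dctd*, dCMP deaminase, changed by -2.41 in *p53-/-* cells and -4.37 in WT cells, and *Ctps*, CTP synthase, by -2.58 and -4.16, with neither difference called. *Shmt1*, a folate cycle enzyme, had the larger fitted fall in *p53-/-* cells, alone of the list. It was -3.77 against -3.33 in WT cells, and that difference was not called (-0.44). In *p53-/-* clones 1 to 3 *Shmt1* was 9.58, 9.28 and 10.33 at 0 h and 6.65, 5.21 and 8.56 at 18 h. In WT cells it was 8.8, 8.64 and 8.22 at 0 h and 5.65, 5.15 and 5.11 at 18 h. Only *p53-/-* clone 2 fell further than the WT clones. At 18 h it was detected on 2 of 3 *p53-/-* arrays and 1 of 3 WT arrays.

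Among genes of G2 and mitosis, the counts called lower over 18 h were 0 of 15 in *p53-/-* cells (9 at an unadjusted p under 0.05, as for 23.6% of all genes) and 11 of 15 in WT cells (2.55% of all genes were called lower in *p53-/-* cells and 10.7% in WT cells), with median log2 changes of -0.79 and -1.24. No difference between these changes was called for any of the 15 (4 at an unadjusted p under 0.05, as for 18.3% of all genes). *Mad2l1*, a spindle checkpoint gene, changed by -2.99 in WT cells. At 18 h it was 8.15, 8.01 and 4.43 in *p53-/-* cells and 7.13, 5.69 and 6.34 in WT cells, with *p53-/-* clone 3, the array of low weight, below every WT clone.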
